A study of Saccharomyces cerevisiae with 12 samples.

Results

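The comparison of *rsc1*Δ with wild type yeast drew on 6 of the 12 arrays of the series, 3 *rsc1*Δ and 3 wild type. These were 2-color tiling arrays of the yeast genome, hybridized with DNA from ChIP of acetylated histone H4 (AcH4). The mutant is labeled only as *rsc1*Δ, and its further genotype and its relation to the wild type strain are not given in the sources used here. The wild type is BY4741, a MATa laboratory strain with the alleles his3Δ1, leu2Δ0, met15Δ0 and ura3Δ0. All cultures were grown to log phase in rich medium (YPD), and each array carried a separate ChIP sample, labeled as a biological repeat. RNA amplified from immunoprecipitated (IP) DNA was labeled with Cy5, and RNA amplified from input DNA of the same sample with Cy3. The antibody was raised against the hyperacetylated H4 tail, so a value does not say which lysine was acetylated or how much H4 was present. The remaining arrays were from *rsc2*Δ and *rco1*Δ mutants, 3 each.

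RSC is an ATP-dependent remodeling complex that moves and ejects nucleosomes and helps to keep promoters free of them. It is built around the Sth1 ATPase and occurs in forms that hold either Rsc1 or its paralog Rsc2, both of which carry tandem bromodomains, the modules that bind acetylated lysines. Loss of either paralog is tolerated, whereas loss of both is lethal. Acetylation of the H4 tail is found at active promoters and is removed in silent chromatin near telomeres and at the silent mating-type loci by the Sir2 deacetylase.

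Values are log2 ratios of IP over input signal, with the median probe of each array at 0, so every value is a level relative to that array's median. Means of 3 neighboring probes within 1500 bp (called windows here) were tested with limma, and adjusted p-values (Benjamini-Hochberg) cover all 41193 windows. Probe positions follow the array design (sacCer1 assembly), with a median of 257 bp between probe starts. The files pair no probe with a gene, and the gene table at hand is of another assembly, so loci are given by position alone. The share of probes well above background on the arrays compared was 81.1% to 99.8% for input and 87.4% to 98.7% for IP. No saturated spots were found, and the number of arrays limits the precision.

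The deletion was checked first. At the 10 probes between chr7:601666-604154, log2 input relative to the array median was -4.63, -6.69 and -2.91 in the *rsc1*Δ arrays, against 0.11, 0.01 and 0.01 in the wild type arrays. None of these probes was well above background in either channel of any *rsc1*Δ array, so the sizes are not measured, but the groups were far apart. RSC1 (YGR056W) is on chromosome VII in the RefSeq gene table, between MUP1 and LST7. The stretch was left out of all tests. No other window lost input in this way, since input differences over the remaining windows lay between -1.04 and 0.94.

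AcH4 differed from wild type at short, scattered positions. Of the 41193 windows, 141 (0.342%) were higher and 197 (0.478%) lower in *rsc1*Δ, relative to wild type, at an adjusted p under 0.05, and 5332 had an unadjusted p under 0.05. Joined where they overlapped or adjoined, the called windows formed 136 loci, 65 higher and 71 lower, which together covered 619 probes or 1.49% of those on nuclear chromosomes. The median difference over all windows was 0.04, with an SD of 0.32. The higher loci spanned 407 to 1955 bp (median 837), with differences of 0.77 to 2.17 (median 1.06) at the window with the lowest p, and the lower loci spanned 388 to 2924 bp (median 853), with differences of -2.64 to -0.76 (median -1.03). A difference of 1 on this scale stands for an IP over input ratio 2 times as high, and it was exceeded in size at 38 loci of each direction. In order of adjusted p from limma, the last window called (0.0499) had an absolute difference of 1.02. The first not called (0.0501) had 1.01, so size alone did not decide a call.

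These calls rest on how the signals were background-corrected and scaled. The spread of the window means, as a median absolute deviation, was 1.64, 1.65 and 1.64 in the *rsc1*Δ arrays, against 1.39, 1.48 and 1.49 in the wild type arrays, and the groups did not overlap (p = 0.1 in a two-sided exact permutation test, and 3 against 3 arrays cannot give less). In *rsc2*Δ the mean spread was 1.64 as well, so the wider spread was not particular to *rsc1*Δ. Wild type replicate 1, the narrowest array, had 987 outlier-flagged spots, against 2 to 57 on the other arrays compared. Without it the difference in mean spread was 0.16, beside 0.19 with all arrays. After the arrays were brought to a common spread, limma called 7 windows higher and 13 lower. In the deposited value table, whose arrays have nearly equal spread, it called 0 in each direction, with 565 windows at an unadjusted p under 0.05. The difference at the leading windows kept its direction at all 136 loci after scaling and at 135 in the deposited table. Medians in that table were 0.72 at the higher and -0.67 at the lower loci. The groups were free of overlap at all 136 loci under the main settings and at 116 in the deposited table. The share of all windows without overlap in that table was not computed. Plain background subtraction kept the wider spread in *rsc1*Δ (difference 0.21), yet limma called only 2 windows higher and 1 lower. The median SE over all windows was 0.30 there, beside 0.21 under the main settings. Most calls did not hold under the other scalings or background corrections. The loci were picked for their difference on these same arrays, so the kept directions follow largely from that choice and add nothing to the calls.

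At the higher loci, the mean log2 ratio was above the array median at 46 of 65 in *rsc1*Δ and at 19 of 65 in wild type. Over all windows, the wild type mean was above 0 at 51.9%. Since the loci were picked as higher in *rsc1*Δ, the larger count in the mutant follows in part from that choice. The largest difference was at chr2:597582-599536, where the leading window had log2 ratios of 1.57, 1.78 and 1.26 in *rsc1*Δ, against -0.73, -0.53 and -0.65 in wild type. The mutant arrays lay far above all wild type arrays, with a difference of 2.17 ± 0.22 (SE, adjusted p = 4.91e-05 from limma). At chr7:1012776-1014505 the ratios were 1.26, 0.74 and 1.06 in *rsc1*Δ and -0.64, -1.28 and -0.98 in wild type, a difference of 1.98 ± 0.21 (SE, adjusted p = 7.04e-05 from limma). At chr16:19425-20957 they were 1.49, 1.61 and 1.33 in *rsc1*Δ and -0.98, -0.17 and -0.18 in wild type, a difference of 1.92 ± 0.23 (SE, adjusted p = 0.000348 from limma). At each of these 3 positions the mutant was above the array median and wild type below it. The locus on chromosome 2 had all 18 leading spots well above background. Taken alone, 6 of its 8 probes separated the groups, but it was called on means of these probes, so this adds nothing to the call. The share over all single probes was not computed.

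Other higher loci stayed below the array median in both strains. At chr10:231571-233483 the log2 ratios were -0.37, -0.88 and -0.90 in *rsc1*Δ, against -2.50, -2.03 and -2.33 in wild type (adjusted p = 0.000626 from limma). At chr7:205717-207383 they were -1.09, -0.47 and -0.88 in *rsc1*Δ, against -2.36, -2.44 and -2.07 in wild type (adjusted p = 0.00954 from limma). A neighboring locus at chr7:211630-213254 gave -0.16, -0.49 and -0.17 in *rsc1*Δ, against -1.58, -1.61 and -1.89 in wild type (adjusted p = 0.000477 from limma). At these 3 loci the mutant stayed below the median while differing from wild type by 1.42 to 1.57. The same held at chr4:1485848-1487374, with -0.77, -0.95 and -0.70 in *rsc1*Δ against -2.11, -2.22 and -2.04 in wild type (adjusted p = 0.000927 from limma). It also held at chr13:756694-758267, with -1.76, -1.41 and -1.76 in *rsc1*Δ against -2.46, -2.98 and -3.09 in wild type (adjusted p = 0.00954 from limma). In the chromosome 13 locus, 1 of the 3 leading probes did not rise well above background in IP on any array, so its level there is not known.

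The other higher loci among the 15 with the largest differences had wild type means between -1.31 and 0.33. At chr15:7747-8587 the mean log2 ratio was 1.16 ± 0.41 in *rsc1*Δ and -0.34 ± 0.23 in wild type (SD, n = 3 each), and at chr15:458611-460199 it was 1.77 ± 0.34 in *rsc1*Δ and 0.33 ± 0.11 in wild type (SD, n = 3 each). At chr15:352276-353848 it was 0.87 ± 0.31 in *rsc1*Δ and -0.53 ± 0.10 in wild type (SD, n = 3 each). Chromosome 15, with 9.05% of all windows, held 11 of the 65 higher and 6 of the 71 lower loci, and 0.54% of its windows were called higher, against 0.65% on chromosome 7 and 0.60% on chromosome 13. At chr12:912208-913650 the mean was 0.08 ± 0.26 in *rsc1*Δ and -1.31 ± 0.11 in wild type (SD, n = 3 each), and at chr7:989717-990685 it was 0.94 ± 0.13 in *rsc1*Δ and -0.34 ± 0.27 in wild type (SD, n = 3 each). The last of the list were chr9:379888-380998, at 1.57 ± 0.32 in *rsc1*Δ and 0.33 ± 0.14 in wild type (SD, n = 3 each), and chr4:1156638-1157806, at 0.85 ± 0.46 in *rsc1*Δ and -0.36 ± 0.11 in wild type (SD, n = 3 each). None of these loci showed overlap between the groups, which held for all 65 higher loci against 13.2% of all windows with every *rsc1*Δ array above every wild type array, and for all 71 lower loci against 8.95% with every *rsc1*Δ array below. Since the loci were called for their difference, the absence of overlap adds nothing to the call.

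**Figure D1:**
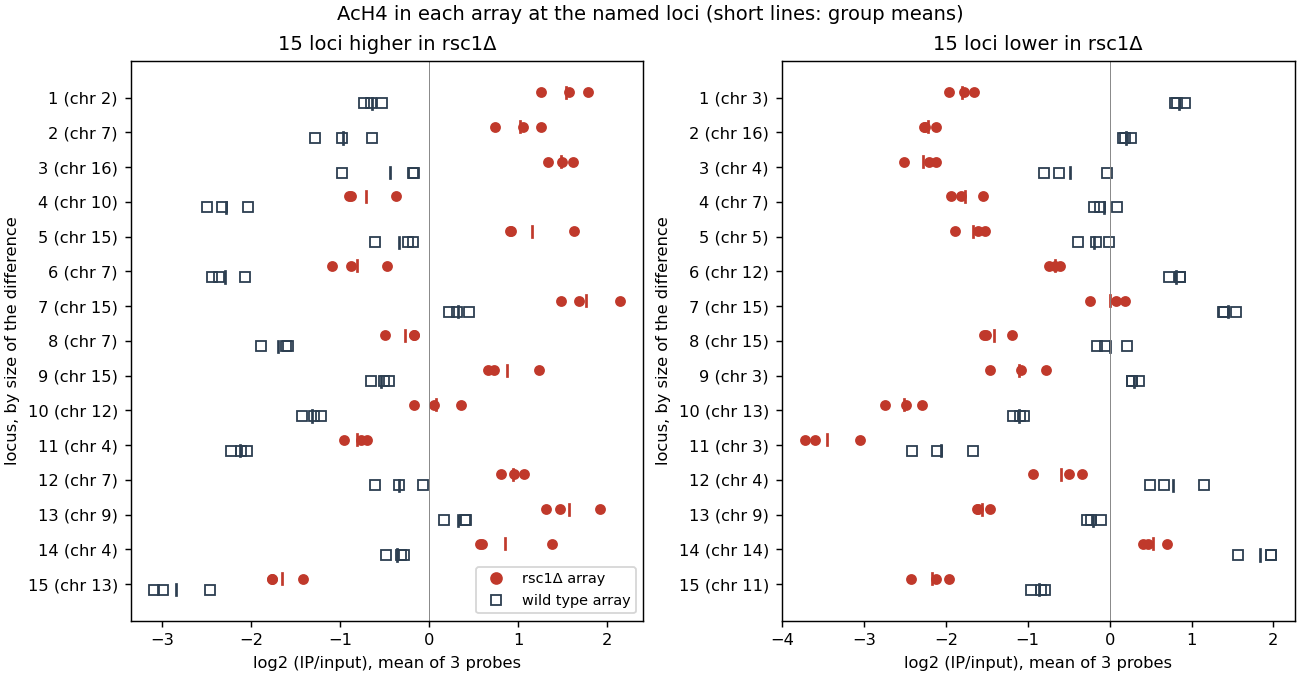
Log2 IP over input (x axis, mean of the 3 probes of the leading window) in each of the 3 *rsc1*Δ arrays (filled circles, upper row of each locus) and 3 wild type arrays (open squares, lower row) at the 15 loci with the largest differences in each direction (y axis, with the chromosome of each locus). Short vertical lines are group means. The groups do not overlap at any of the 30 loci, and the differences lie between 1.20 and 2.17 at the higher and between -2.64 and -1.30 at the lower loci.

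At the lower loci, 4 of 71 were above the array median in *rsc1*Δ and 35 of 71 in wild type. The largest fall of the comparison was at chr3:202032-204163, where the log2 ratios were -1.97, -1.78 and -1.65 in *rsc1*Δ, against 0.80, 0.82 and 0.92 in wild type. The difference was -2.64 ± 0.19 (SE, adjusted p = 1.10e-06 from limma). Taken alone, 9 of the 10 probes of the locus separated the groups, but the locus was called on means of these probes. The next was at chr16:940319-942842, near the right end of the chromosome, with ratios of -2.27, -2.12 and -2.25 in *rsc1*Δ, against 0.26, 0.16 and 0.19 in wild type (difference -2.42 ± 0.19 SE, adjusted p = 2.63e-06 from limma). Both stretches were far below the median in the mutant and above it in wild type, and the replicates of each strain were close to each other.

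Of the remaining lower loci, chr4:179016-180876 had ratios of -2.20, -2.12 and -2.51 in *rsc1*Δ, against -0.62, -0.03 and -0.81 in wild type (adjusted p = 0.00062 from limma). At chr7:680735-682317 they were -1.55, -1.94 and -1.82 in *rsc1*Δ, against 0.09, -0.20 and -0.11 in wild type (adjusted p = 0.000145 from limma). Wild type arrays were more scattered at the first of these than at the second. The widest locus, of 12 probes over 2924 bp, was at chr12:394445-397368, with -0.61, -0.74 and -0.67 in *rsc1*Δ against 0.85, 0.72 and 0.86 in wild type (adjusted p = 0.000414 from limma). At chr5:543031-544555 the mean was -1.67 ± 0.19 in *rsc1*Δ and -0.19 ± 0.19 in wild type (SD, n = 3 each). Some falls were at stretches already below the median in wild type, such as chr13:456827-458154, with a mean of -2.51 ± 0.23 in *rsc1*Δ and -1.11 ± 0.07 in wild type (SD, n = 3 each). Another was chr11:535177-536675, with a mean of -2.17 ± 0.24 in *rsc1*Δ and -0.87 ± 0.09 in wild type (SD, n = 3 each). At chr4:1021563-1022665 the mean was -0.59 ± 0.31 in *rsc1*Δ and 0.77 ± 0.34 in wild type (SD, n = 3 each).

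**Figure D2:**
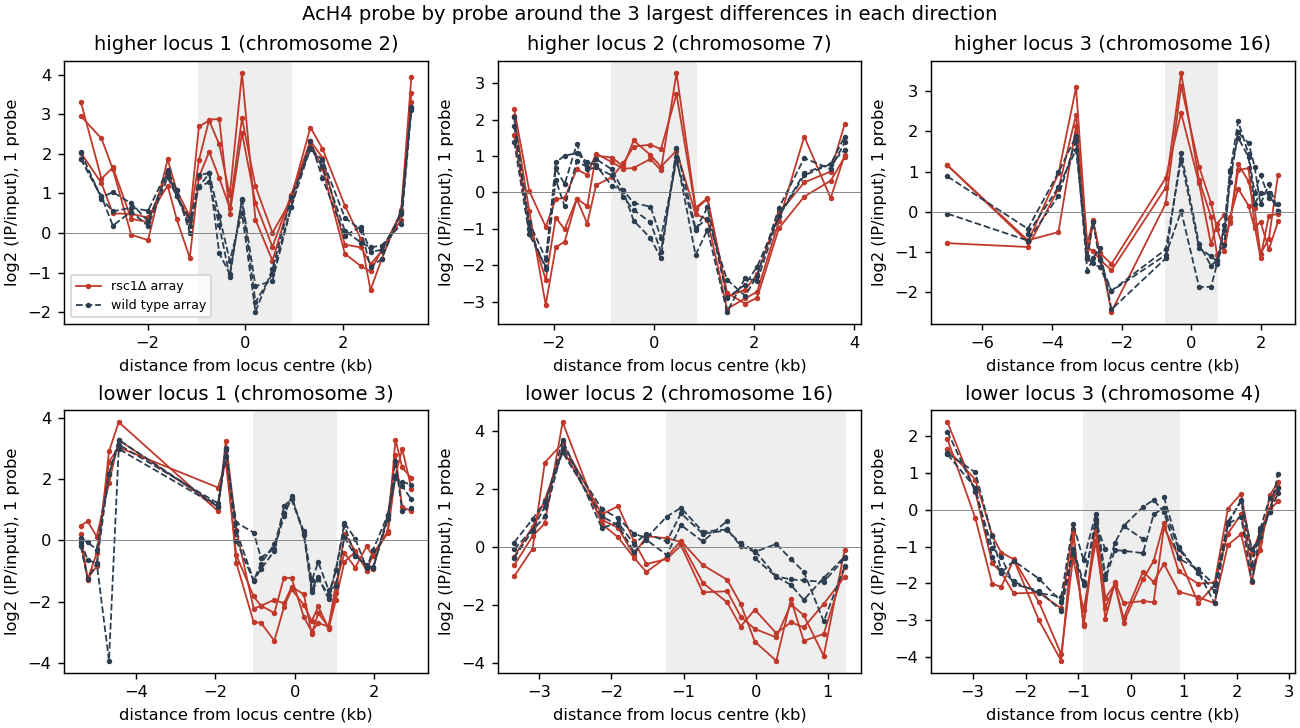
Log2 IP over input of each probe (y axis) against distance from the locus centre in kb (x axis) for the 3 largest differences in each direction, with 1 line for each *rsc1*Δ array (solid) and each wild type array (dashed) and the locus shaded. Inside the shading the *rsc1*Δ lines run above the wild type lines in the upper row (leading differences of 2.17, 1.98 and 1.92) and below them in the lower row (-2.64, -2.42 and -1.79).

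In places a rise and a fall lay side by side, a pattern noticed after the values were seen. There were 12 pairs of a higher and a lower locus less than 3 kb apart, which took in 8 of the 65 higher and 12 of the 71 lower loci. At chr15:458611-460199 AcH4 was higher by 1.44, while 419 bp further the stretch chr15:460618-461680 was lower by 1.44, at 0.19, 0.08 and -0.24 in *rsc1*Δ against 1.40, 1.55 and 1.38 in wild type (adjusted p = 0.00183 from limma). Further on, the stretch chr15:462309-463852 was lower as well, at -1.51, -1.19 and -1.53 in *rsc1*Δ against 0.21, -0.05 and -0.15 in wild type (adjusted p = 0.000898 from limma). Over this region of about 5 kb the mutant had more AcH4 on the left and less on the right than wild type. The closest pair was on chromosome 16, where the higher locus chr16:19425-20957 was followed after 314 bp by a lower locus at chr16:21271-22703 with a difference of -1.07. Other such pairs were at chr3:300834-301535 (1.08) with chr3:302302-303947 (-1.28), at chr12:112182-112837 (1.14) with chr12:113827-114511 (-1.29), and at chr4:1156638-1157806 (1.21) with chr4:1158912-1159553 (-1.28). Neighboring windows share DNA fragments, and how often such pairs would arise by position alone was not tested.

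At most loci the change was in the IP channel. Differences in the IP channel alone, each array centered on its median, had the sign of the ratio at all 136 loci, and they were larger in size than the input differences at 61 of the 65 higher and all 71 lower loci. The median IP difference was 0.99 at the higher and -1.00 at the lower loci, beside a median input difference of -0.09 and 0.04. The exceptions were higher loci with less input in the mutant. At chr16:710068-710616 the input difference was -0.92 and the IP difference only 0.07. Among the 30 loci with the largest differences, input differences stayed between -0.33 and 0.38. Tested on the IP channel alone, 34 windows were called higher and 64 lower, and 18 of those 30 loci were called.

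**Figure D3:**
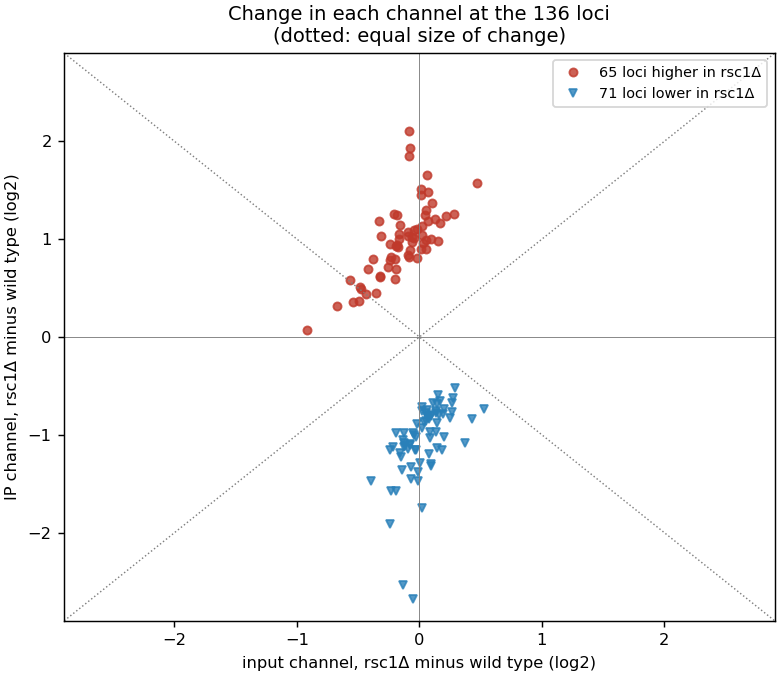
Difference of *rsc1*Δ minus wild type in the IP channel (y axis, log2) against that in the input channel (x axis, log2) at the leading window of the 65 higher loci (circles) and 71 lower loci (triangles). Most points stand near the vertical axis, with median input differences of -0.09 and 0.04 and median IP differences of 0.99 and -1.00. Dotted lines mark changes of equal size.

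Slides held unequal numbers of each strain, and only 1 scan held both an *rsc1*Δ array (replicate 1) and wild type arrays (replicates 1 and 2). Within that scan the median difference was 0.92 at the higher and -1.01 at the lower loci, and on the second slide (*rsc1*Δ replicate 2, wild type replicate 3, scanned apart) it was 1.14 and -1.00. Since no locus had overlapping groups, the signs of these differences were fixed in advance. Their sizes come from the same arrays on which the loci were called, so they are not independent of the call. *rsc1*Δ replicate 2 and wild type replicate 3 also share 1 recorded array position (5). How 2 separately scanned arrays came to share it was not examined. The second-slide comparison and the fit with slide as a block depend on this record. Each *rco1*Δ array was scanned with no other strain, so the fit with scan as a block left out these arrays. It called 7 windows higher and 9 lower, where the same 9 arrays without the block gave 217 and 273, among them 6 of the 30 loci named, which were those at chr2:597582-599536, chr7:1012776-1014505, chr16:19425-20957, chr10:231571-233483, chr3:202032-204163 and chr16:940319-942842. The differences at the 30 loci were as large under this block, with a median size of 1.43 beside 1.42 in the same arrays without it, while the median SE over all windows was 0.29 beside 0.20. With slide as a block limma called 66 higher and 117 lower, and 28 of the 30. Leaving out single arrays changed the counts as well, between 38 and 210 windows higher and between 75 and 168 lower, and 26 to 29 of the 30 loci were still called.

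Chromosome ends stood out for the number of windows called lower. Distance was counted from the outermost probe of each chromosome, since chromosome lengths were not used. Of the 295 windows less than 5 kb from that probe, 44 (14.9%) were called lower and 0 higher in *rsc1*Δ. The share called lower was 3.93% from 5 to 10 kb, 1.41% from 10 to 20 kb, 0.41% from 20 to 40 kb and 0.31% further in, and the shares called higher over the same classes were 2.36%, 0.30%, 0.32% and 0.33%. Within 20 kb lay 19 of the 71 lower and 7 of the 65 higher loci, on 4.05% of the windows. The mean log2 ratio over the outermost class was -1.41, -1.24 and -1.26 in *rsc1*Δ, against -0.99, -1.13 and -1.22 in wild type. The difference was -0.19, beside an SD of 0.09 in *rsc1*Δ and 0.12 in wild type (n = 3 each). The groups did not overlap, but their closest arrays, at -1.24 and -1.22, were nearly equal. The exact permutation test (two-sided) gave p = 0.1, the lowest that 3 against 3 arrays can give, and 0.5 after adjustment over the 5 classes. With a common spread the difference was -0.033, and 8 windows of the class were called lower.

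The falls at the ends came from a few of them. Of the 26 ends with a tested window in the outer 5 kb, 8 held all 44 windows called lower, and the mean difference was negative at 12 and positive at 14 ends. Every *rsc1*Δ array was below every wild type array at 7 of the 26 ends, and above at 4 others, the left ends of chromosomes 1, 2, 10 and 16. Over all single windows, 8.95% lay wholly below and 13.2% wholly above, whereas an end mean covers 1 to 20 windows. The right end of chromosome 16 had mean ratios of -0.51, -0.72 and -0.58 in *rsc1*Δ, against 0.26, 0.47 and 0.34 in wild type, with 9 windows called lower. The right end of chromosome 9 also had 9, at -1.52, -1.10 and -1.16 in *rsc1*Δ against -0.25, -0.41 and -0.39 in wild type. Both ends changed over several kb and in every array. The left end of chromosome 8, with 3 windows, was at -1.39, -1.12 and -1.43 in *rsc1*Δ, against 0.03, -0.20 and -0.35 in wild type. Differences of -0.82, -0.73 and -0.62 were found at the left end of chromosome 15 and at the right ends of chromosomes 3 and 14, where 6, 6 and 7 windows were called lower. At the end poorest in AcH4, the left end of chromosome 3, at -3.76, -3.64 and -3.82 in *rsc1*Δ and -3.74, -3.58 and -4.22 in wild type, the groups overlapped. Of the 8 ends with called windows, the right end of chromosome 6 and the left end of chromosome 7, with 3 and 1 of them, had overlapping arrays in the mean. The others had wild type means between -1.51 and 0.36. Sequences near chromosome ends are often shared between ends, and whether a probe matched more than 1 end was not examined.

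Named loci at these ends show the same picture. At chr9:435834-438728, 2.11 kb from the outermost probe, the ratios were -1.62, -1.46 and -1.60 in *rsc1*Δ, against -0.10, -0.22 and -0.27 in wild type (adjusted p = 0.000418 from limma). At chr14:778090-780673 they were 0.47, 0.70 and 0.41 in *rsc1*Δ, against 1.57, 1.97 and 1.97 in wild type (adjusted p = 0.00135 from limma), so this end kept AcH4 above the median. At chr3:309480-312171 they were -0.78, -1.46 and -1.08 in *rsc1*Δ, against 0.27, 0.35 and 0.27 in wild type (adjusted p = 0.00411 from limma). Next to it, at chr3:313934-314925, they were -3.72, -3.05 and -3.59 in *rsc1*Δ, against -1.67, -2.11 and -2.41 in wild type (adjusted p = 0.0313 from limma). There 2 of the 3 leading probes were not well above background in IP on any *rsc1*Δ array, and counting those probes at the array's lowest signal above background leaves a fall of at least 0.54 on the log2 scale. Such a probe was present at 8 of the 136 loci, 1 higher and 7 lower. Counted in the same way, the higher locus (chr13:756694-758267) keeps a difference of at least 0.83 and 6 of the lower loci keep falls with bounds of -0.86 to -0.42. No fall is shown at the remaining one, chr4:1123360-1123951 (singled out after its values were seen), which was measured at -1.01 and is among the 71 lower loci. Chromosome 3 held 7 lower loci and 1 higher locus, and 26 of its 1074 windows (2.42%) were called lower.

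**Figure D4:**
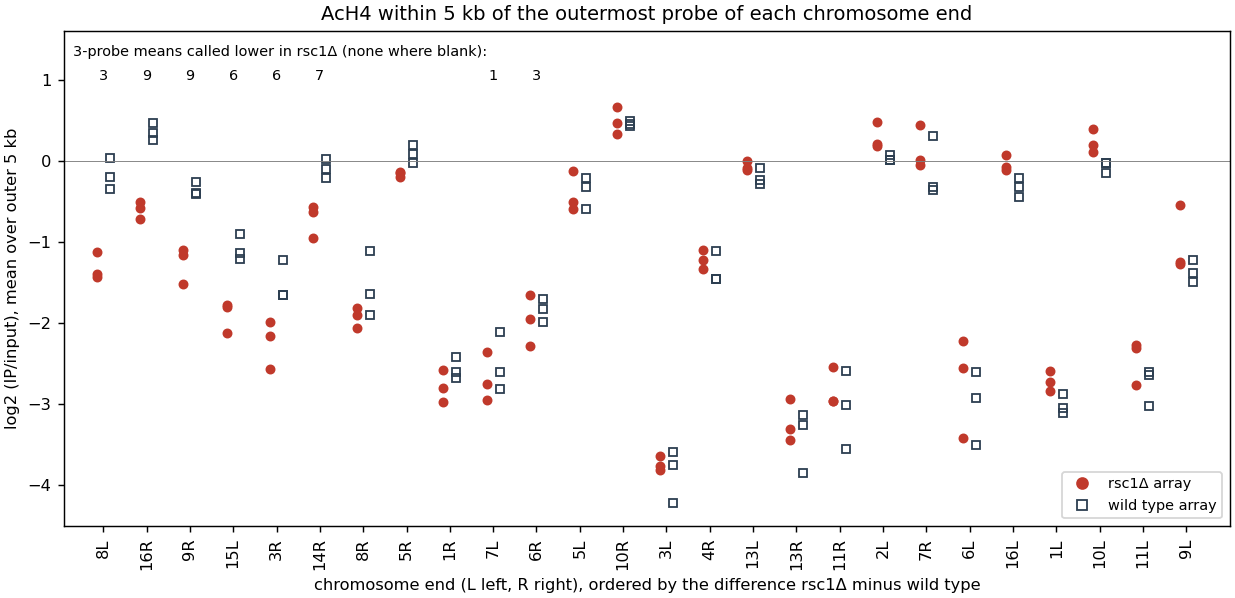
Mean log2 IP over input (y axis) of the windows less than 5 kb from the outermost probe, for each of 26 chromosome ends (x axis, L left and R right) ordered by the difference, in the 3 *rsc1*Δ arrays (filled circles) and 3 wild type arrays (open squares). Numbers at the top count windows called lower in *rsc1*Δ, 44 in all, which fall on 8 ends.

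Over 10 kb bins the differences were smaller. Of 1176 bins, 7 (0.595%) were called higher and 9 (0.765%) lower, and 163 had an unadjusted p under 0.05. With normexp, plain subtraction, loess or the deposited values no bins (0) were called, and leaving out single arrays gave 0 to 18 higher and 4 to 9 lower. The strongest was the last bin of the right arm of chromosome 16, starting at 940001, with 12 probes at -1.54, -1.72 and -1.71 in *rsc1*Δ, against -0.37, -0.06 and -0.17 in wild type (difference -1.46 ± 0.10 SE, adjusted p = 3.16e-07 from limma). It was followed by the bins that start at 310001 on chromosome 3 (-0.71), at 1 on chromosome 8 (-0.69), at 430001 on chromosome 9 (-0.61) and at 200001 on chromosome 3 (-0.48). Of these 5 bins, 4 were the outermost of their chromosomes. Among the called bins, the 5 higher ones with the largest differences, of 0.33 to 0.43, started at 430001 and 360001 on chromosome 4, at 200001 on chromosome 7 and at 550001 and 590001 on chromosome 2. A larger difference of 0.51, in the bin that starts at 10001 on chromosome 16, did not pass the test (adjusted p = 0.0518 from limma) and had no value on 1 wild type array. At 360001 on chromosome 4 the bin was rich in AcH4 in both strains, with a mean of 1.43 in *rsc1*Δ, against 1.08 in wild type, and held no called locus. Over whole chromosomes the mean differences in the log2 ratio were between -0.01 and 0.06, with overlap between the groups on all 16. Relative to the other chromosomes of the same array, the ratio did not overlap on 7 of them, 4 higher and 3 lower in *rsc1*Δ, with small differences of -0.04 to 0.03. Without wild type replicate 1, 11 chromosomes did not overlap in the mean ratio.

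Input DNA of chromosome 12 was raised in the *rsc1*Δ arrays. Relative to the mean of the other chromosomes of the same array, log2 input of chromosome 12 was 0.21, 0.21 and 0.19 in *rsc1*Δ, against -0.01, -0.01 and -0.01 in wild type. The difference of 0.21 corresponds to 1.16 times as much input, and the *rsc1*Δ arrays also stood above all 9 arrays of the other strains, which lay between -0.02 and 0.02 (p = 0.1 against wild type in a two-sided exact permutation test, the lowest that 3 against 3 arrays can give). The rise ran along the whole chromosome: in each of 11 segments of 100 kb every *rsc1*Δ array was above every wild type array, with differences between 0.18 and 0.24. IP DNA moved with it, by 0.23, so the ratio of chromosome 12 differed by 0.02. Chromosome XII carries RSC2 (YLR357W), the paralog of the deleted gene. What the rise stems from was not tested. Its size was small beside the locus differences, and chromosome 12, with 8.93% of all windows, held 8 of the 65 higher and 4 of the 71 lower loci. At its widest lower locus, chr12:394445-397368, input was 0.38 higher and IP 1.09 lower in *rsc1*Δ.

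**Figure D5:**
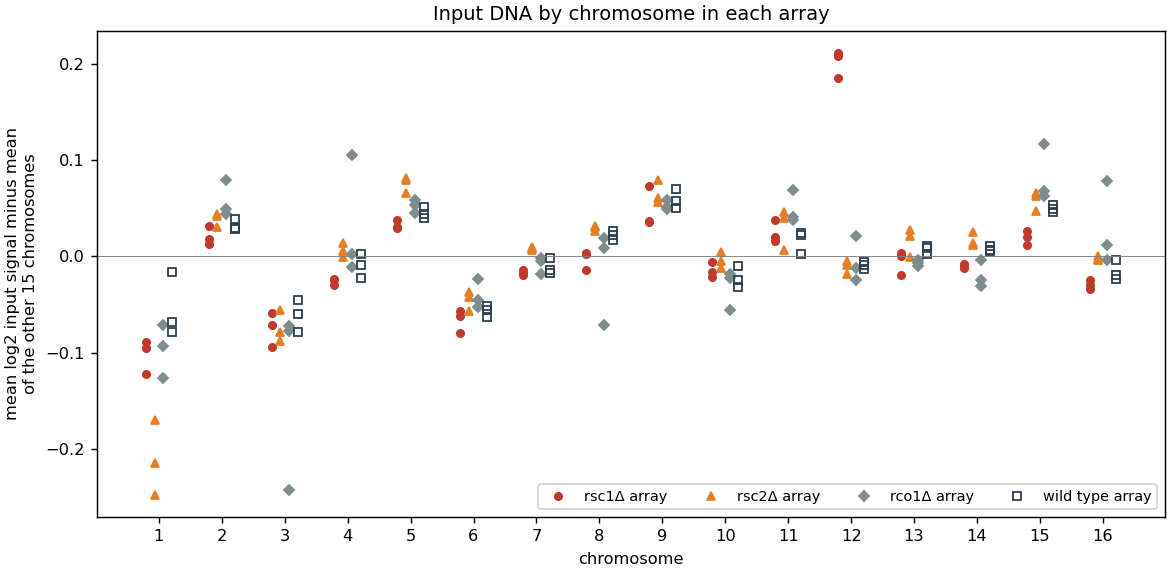
Mean log2 input signal of each chromosome (x axis) minus the mean of the other 15 chromosomes of the same array (y axis), for the 3 arrays of each strain (*rsc1*Δ circles, *rsc2*Δ triangles, *rco1*Δ diamonds, wild type open squares). On chromosome 12 the *rsc1*Δ arrays lie between 0.19 and 0.21 and the other 9 arrays between -0.02 and 0.02.

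Since Rsc1 and Rsc2 occupy alternative forms of RSC, the same positions were compared between *rsc1*Δ and *rsc2*Δ directly. Set against *rsc2*Δ, AcH4 in *rsc1*Δ was higher at 877 (2.13%) of all windows and lower at 849 (2.06%). Of the 65 higher loci 34 were also higher than in *rsc2*Δ, and 1 was lower, and of the 71 lower loci 33 were also lower than in *rsc2*Δ, and 2 were higher. The loci were called on the same *rsc1*Δ arrays, so these counts are not independent of the call. At chr2:597582-599536 the mean was 1.54 ± 0.26 in *rsc1*Δ, against -0.24 ± 0.39 in *rsc2*Δ (SD, n = 3 each), and at chr7:1012776-1014505 it was 1.02 ± 0.26 in *rsc1*Δ, against -0.89 ± 0.14 in *rsc2*Δ (SD, n = 3 each). At this chromosome 7 locus the *rsc2*Δ mean was close to that of wild type, -0.97. At chr7:211630-213254 the mean was -0.28 in *rsc1*Δ, against -2.51 ± 0.12 in *rsc2*Δ (SD, n = 3), on either side of wild type at -1.69. At chr4:1021563-1022665 the order was reversed, with -0.59 in *rsc1*Δ, 1.40 ± 0.10 (SD, n = 3) in *rsc2*Δ and 0.77 in wild type.

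Other positions were low in both RSC mutants. At chr3:202032-204163 the mean was -1.80 ± 0.16 in *rsc1*Δ, against -1.18 ± 0.16 in *rsc2*Δ (SD, n = 3 each), and the difference of -0.62 ± 0.19 (SE) between the mutants missed the threshold (adjusted p = 0.0713 from limma). At chr7:680735-682317 the fall was less deep in *rsc1*Δ, at -1.77 ± 0.20, than in *rsc2*Δ, at -2.74 ± 0.21 (SD, n = 3 each), a difference of 0.98 ± 0.19 (SE, adjusted p = 0.00507 from limma). At chr3:309480-312171 the mutants were at -1.11 ± 0.34 in *rsc1*Δ, against -1.32 ± 0.31 in *rsc2*Δ (SD, n = 3 each), and the difference of 0.21 did not pass the test (adjusted p = 0.695 from limma). Both mutants were compared with the same wild type arrays. At the right end of chromosome 16 the mutants parted: chr16:940319-942842 was at -2.21 ± 0.08 in *rsc1*Δ, against -0.64 ± 0.18 in *rsc2*Δ (SD, n = 3 each), a difference of -1.57 ± 0.19 (SE, adjusted p = 0.000103 from limma). Over the outermost 5 kb of all ends, the mean ratio was -1.41, -1.24 and -1.26 in *rsc1*Δ, against -0.99, -1.24 and -1.02 in *rsc2*Δ, and although the arrays did not overlap (p = 0.1 in a two-sided exact permutation test, again the lowest that this number of arrays can give), *rsc1*Δ replicate 2 and *rsc2*Δ replicate 2 were nearly equal.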

How the data were processed

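AcH4 ChIP was hybridized against input on 2-color Agilent arrays after linear amplification. The authors deposited Feature Extraction (10.5.1.1) output per array, in which spot, background and processed signals are intensity values. Processed signals are net of background and dye-corrected by that software. The deposited value table holds normalized log2 ratios; the methods name median normalization within and Aquantile normalization between arrays in limma, and on 1 array compared these values were a linear function of background-subtracted median signals. The main values were log2 of processed Cy5 over Cy3, with outlier-flagged and control spots left out and each array centered on its median, for 41480 nuclear probes.

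Windows of 3 probes and 10 kb bins with at least 10 probes were fitted with lmFit and eBayes (limma 3.58.1, R 4.3.3) over all 12 arrays of the 4 strains; windows or bins at an adjusted p under 0.05 were called. Group means were compared by exact permutation tests. Named loci were the 15 with the largest differences each way, and the bins named were the 5 with the largest differences each way among called bins. The loci, lists and rules were chosen with earlier results of these data known. Replicates are labeled as biological repeats. Planned means over genes were not run, since no table used here ties probes to genes on sacCer1. The alternatives were other background corrections, loess, the deposited table, a common spread, IP alone, other window sizes, filters, blocks for replicate, slide, scan and scan day, fits on fewer arrays, and leaving out each array. Plots were drawn with matplotlib 3.10.9.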

Additional observations from a re-analysis of the deposited data

Results flagged for a closer look

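At 21 of the 30 named loci the 2 RSC mutants differed from each other in the direct test, *rsc1*Δ minus *rsc2*Δ (limma, adjusted p under 0.05). Over all windows, 2.13% were higher and 2.06% lower in this test. At 12 loci higher than wild type in *rsc1*Δ, the mutants differed by 1.78 at chr2:597582-599536, 1.91 at chr7:1012776-1014505, 1.92 at chr16:19425-20957, 1.70 at chr10:231571-233483, 1.28 at chr15:7747-8587, 1.36 at chr7:205717-207383, 1.01 at chr15:458611-460199, 2.23 at chr7:211630-213254, 1.17 at chr15:352276-353848, 2.04 at chr12:912208-913650, 1.08 at chr7:989717-990685 and 0.93 at chr13:756694-758267. At 8 loci lower than wild type in *rsc1*Δ, they differed by -1.57 at chr16:940319-942842, -1.63 at chr12:394445-397368, -0.93 at chr15:460618-461680, -1.49 at chr15:462309-463852, -1.24 at chr13:456827-458154, -1.99 at chr4:1021563-1022665, -1.05 at chr9:435834-438728 and -0.80 at chr14:778090-780673. At chr7:680735-682317, which was lower than wild type in both mutants, the difference was 0.98, with *rsc2*Δ the lower. The loci were called on the same *rsc1*Δ arrays, so part of each difference comes with the choice of loci.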

How the results depend on the processing

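Over 23 alternatives, 484 of 683 values at the named loci were still called and 199 were not, and no locus was called under all of them. Of these values 0 changed sign, but the loci were chosen for large differences on the same arrays, which largely set the signs. Under the main settings 141 windows were higher and 197 lower in *rsc1*Δ, with 44 of those lower in the outer 5 kb of the chromosomes, and 7 bins were higher and 9 lower. The count in the outer 5 kb was added after the data were seen. The background correction and normalization moved the counts most. With normexp 8 windows were higher and 4 lower, 0 in the outer 5 kb, with 4 named loci and 0 bins called, an outer 5 kb difference of -0.052 and a difference in width of the distribution (median absolute deviation) of 0.080 in place of 0.19. Plain subtraction gave 2 higher and 1 lower, 0 in the outer 5 kb, 3 named loci, 0 bins and 0 distance classes without overlap, against 1. Loess gave 1 higher and 0 lower, 0 in the outer 5 kb, 1 named locus, 0 bins, 2 chromosomes without overlap (0 before), 0 distance classes, an outer 5 kb difference of -0.018 and a width difference of 0.0055. The deposited table gave 0 windows, 0 named loci, 0 bins, 0 distance classes and a width difference of 0.0018. At an unadjusted p under 0.05 limma had 950 windows with normexp, 1586 with plain subtraction, 1083 with loess and 565 in the deposited table. The leading differences kept their direction at 135 of 136 loci with normexp, 135 with plain subtraction, 132 with loess and 135 in the deposited table. These directions were largely set by the choice of the loci on the same arrays. A common spread left 7 windows higher and 13 lower, 8 in the outer 5 kb, 8 named loci, 0 bins higher and 1 lower, 2 chromosomes and 0 distance classes without overlap, and an outer 5 kb difference of -0.033. The IP channel alone gave 34 higher and 64 lower, 19 in the outer 5 kb, 18 named loci and 1 chromosome without overlap. Single probes gave 20 higher, 25 lower and 10 in the outer 5 kb, fewer than the windows, and means of 5 probes gave 268 and 322. A threshold of 0.01 left 42 higher, 71 lower, 21 in the outer 5 kb, and 0 bins higher and 4 lower. Probes well above background alone gave 0 bins higher, and outlier spots kept gave 15. The fit on 6 arrays called 248 windows and 25 bins higher, and that on 9 arrays 217 and 15. With scan as a block, and without the *rco1*Δ arrays, 7 windows were higher and 9 lower, 4 in the outer 5 kb, with 6 named loci, 0 bins higher and 2 lower, while the median size at the 30 named loci was 1.43. Slide as a block gave 66 and 117 windows and 0 bins higher, scan as a random block 14 bins higher, and scan day as a block 27 and 44 windows, 17 in the outer 5 kb, and 0 bins higher. Equal replicate numbers did not pair the arrays: deviations of same-numbered *rsc1*Δ and wild type arrays correlated at -0.26, -0.15 and -0.03. The replicate block gave 100 windows higher and 144 lower, and 1 bin higher. Leaving out each array gave 38 to 210 windows higher and 75 to 168 lower, 22 to 33 lower in the outer 5 kb, 26 to 29 named loci, 0 to 18 bins higher and 4 to 9 lower, 0 to 11 chromosomes and 1 to 3 distance classes without overlap, an outer 5 kb difference of -0.25 to -0.13 and a width difference of 0.16 to 0.21. Without *rsc1*Δ replicate 2 or 3 the windows higher fell to 58 or 42 and those lower to 107 or 75, and without wild type replicate 1, 2 or 3 they fell to 62, 41 or 38 and to 96, 83 or 78, whereas without *rsc1*Δ replicate 1 there were 210 and 168. The cause of these shifts was not tested. Signal over background limits most the 8 loci with a leading probe not well above background in IP on any array of a strain. At 1 lower locus the same held for input. All 18 leading spots were well above background at 26 of the 65 higher and 34 of the 71 lower loci. The other loci had at least 1 dim leading spot.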
